A study of Mus musculus with 6 samples.

Results

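The ribosomal proteins of both subunits and the factors that start and extend translation were followed through a comparison of EGFP-high with EGFP-negative mouse keratinocytes. Members were all probe sets whose single platform symbol names a ribosomal protein (Rpl, Rps, Rplp or Rpsa), an initiation factor (Eif1 to Eif6) or an elongation factor (Eef1, Eef2), leaving out the kinases named Rps6k and Eif2ak. This gave 111 probe sets for 80 genes, of 12488 rows on the array. They comprise 27 probe sets for small subunit proteins, 22 for large subunit proteins, 48 for initiation factors, 7 for elongation factors and 7 for proteins that bind or modify these factors. A further 40 probe sets carry several symbols of which at least 1 fits the rule, and these were counted separately and not named.

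A ribosome is built from a small and a large subunit, each a scaffold of ribosomal RNA bound by ribosomal proteins. Initiation factors bring the small subunit, the initiator transfer RNA and the messenger RNA together, and elongation factors deliver each aminoacyl transfer RNA and move the ribosome along the message. Ribosomal protein genes are transcribed strongly in most cells, and their output is tied to growth and protein synthesis. In the hair follicle, stem cells of the bulge spend long periods at rest between phases of growth, and hair follicle stem cells are known for a low rate of protein synthesis relative to their progeny.

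The 6 samples were total RNA from mouse skin keratinocytes, 1 array each, from mice carrying a K15-EGFP transgene, in which a keratin 15 promoter drives enhanced green fluorescent protein. Sorting took α6 integrin positive cells with high EGFP for 3 samples and α6 integrin positive cells without EGFP for the other 3, so both groups carry the transgene and differ in its signal. The sources used here do not state age, sex or any treatment of the mice, nor whether each replicate had its own animals or its own sort. The p-values therefore measure only how these samples spread, which may be technical. The gate rests on the activity of that promoter, so each group may hold several kinds of cell.

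Cd34, which encodes a surface marker of the mouse bulge, read 1338.8 to 1579 on the EGFP-high arrays and 29.4 to 40.9 on the EGFP-negative arrays. Probe sets for Krt5, Krt14 and Krt15, the keratins that define these cells, read 1.7 to 48.9 over all arrays. That is the level of the 19 background control rows, whose 95th percentile was 25.5 to 42.25, except for Krt5 on 1 array, so these probe sets offered no check of the labels. Itga6, which encodes α6 integrin, was measured in both groups at 405.6 to 585.3 and 1050 to 1371.4. Profiles correlated at 0.922 to 0.948 within groups and 0.839 to 0.905 between them, on log2 values of tested probe sets.

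Ribosomal protein probe sets had lower intensities in EGFP-high cells on the scale the authors deposited, by a median ratio of 0.842 over 33 tested probe sets, and most of that difference was absent once the arrays were given a common distribution. The median log2 difference, EGFP-high minus EGFP-negative, was -0.25 on the deposited scale and -0.027 after quantile normalization. Initiation factors had a median of -0.21 on the deposited scale and -0.23 after quantile normalization, over 38 tested probe sets. Over all 7453 tested probe sets the corresponding medians were -0.0017 and -0.015. A single member passed the threshold, Rpl13a, a protein of the large subunit, and it was lower in EGFP-high.

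Intensities are linear and were tested as log2(value + 19.3), so a difference of low values is understated. Of the 111 probe sets 80, for 64 genes, were tested, having mean log2 values over the 40th percentile of all rows. The other 31 comprised 16 for ribosomal proteins, 10 for initiation factors, 2 for elongation factors and 3 for binding partners. Of the 111, 13 were not above the 95th percentile of the background control rows on any array. Results over the tested members therefore leave out genes that these probe sets could not measure.

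By limma with Benjamini-Hochberg adjustment at 0.05, 0 of the 80 tested members were higher and 1 was lower. In this comparison 5.19% of all tested probe sets were called, 3.02% higher and 2.17% lower, so the members' calls were not above the background. At an unadjusted p under 0.05, 1 member was higher and 13 were lower, where 8.47% of all tested probe sets were higher and 8.68% lower. Later counts at an unadjusted p are read against these shares. Of the 80 differences 59 (73.8%) were below 0, against 50.2% of all tested probe sets, and the median was -0.21. The 3 EGFP-high values all lay below the 3 EGFP-negative values for 20 members and all above them for 3, where 11.1% and 11.6% of all tested probe sets were apart in these directions. After quantile normalization 0 members were called in either direction, against 4.96% of all tested probe sets (2.9% higher and 2.07% lower), with 1 higher and 5 lower at an unadjusted p under 0.05 (7.98% and 8.32% of all). Then 52 of 80 differences (65%) were below 0, against 52% of all tested probe sets, and the median was -0.11. Values were apart and lower for 8 members and apart and higher for 3, where 11.4% and 10.9% of all tested probe sets were, so these counts were not above the background.

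**Figure D1:**
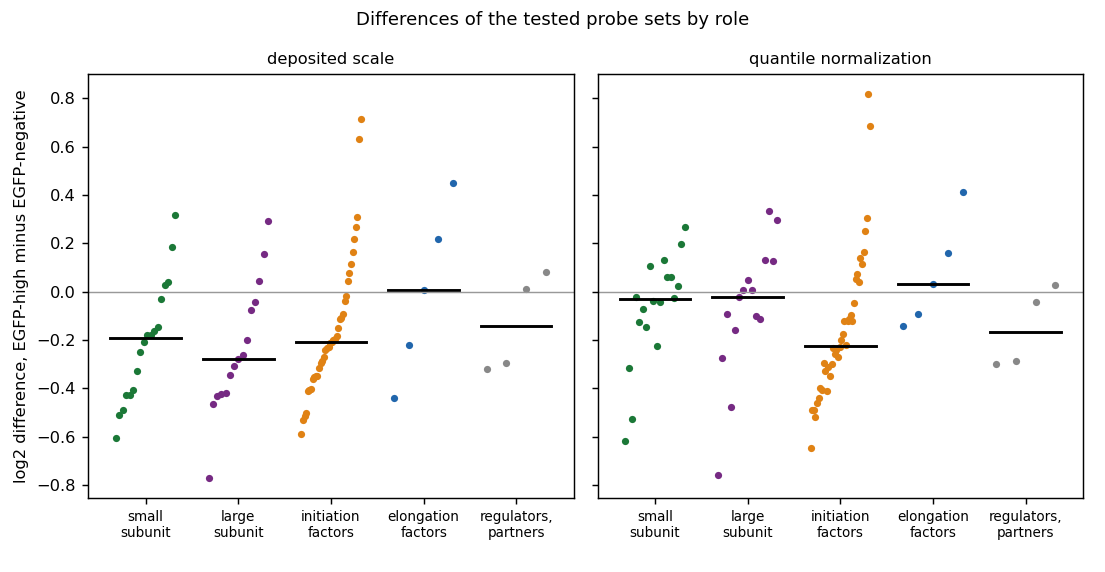
Log2 difference, EGFP-high minus EGFP-negative, of each tested probe set (points) and the median of each role (bars), on the deposited scale (left) and after quantile normalization (right), from 3 arrays per group. The median moved from -0.19 to -0.032 for the small subunit and from -0.28 to -0.022 for the large subunit, and from -0.21 to -0.23 for the initiation factors.

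The replicate numbers in the titles were shared by the arrays of both groups, and with the number as a block 7 members were lower and 0 higher by limma with Benjamini-Hochberg adjustment. The background was larger as well, at 10.4% of tested probe sets, 5.31% lower and 5.13% higher. At an unadjusted p under 0.05, 25 members were then lower and 1 higher, including 8 small subunit, 8 large subunit, 6 initiation factor and 2 elongation factor probe sets lower, against 12.5% of all tested probe sets lower and 11.2% higher. The 7 were the large subunit proteins Rpl13a (adjusted p = 0.0125), Rplp0 (0.0125), Rpl10a (0.0233) and Rpl19 (0.0276), the small subunit proteins Rpsa (0.0373) and Rps19 (0.0453), and the elongation factor Eef2 (0.0463). With the block and quantile normalization together 1 of them was called, Rpl13a (adjusted p = 0.0153), where 9.67% of tested probe sets were (4.94% higher and 4.74% lower).

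In the large subunit, 15 of 22 probe sets were tested and 12 differences were below 0, with 6 apart and lower. Of all tested probe sets 50.2% were below 0 and 11.1% were apart and lower. Rpl13a is a core protein of this subunit that also takes part in silencing of interferon-induced messages, and its transcript is often used as a reference in other assays. It read 347.8, 228.4 and 273.5 on EGFP-high replicates 1, 2 and 3, and 532.9, 489.4 and 453.9 on EGFP-negative replicates 1, 2 and 3. The groups did not overlap, and the lowest EGFP-negative value lay above the highest EGFP-high value. The means were 283 ± 60.3 and 492 ± 39.6 (SD, n = 3 each), a log2 difference of -0.77 (SE 0.18, 95% interval -1.19 to -0.36, limma adjusted p = 0.0447). After quantile normalization the difference was -0.76 and the limma adjusted p 0.0513, so its size did not move with the normalization although the call did. Leaving out any array other than EGFP-high replicate 1 also ended the call, with adjusted p from 0.0891 without EGFP-negative replicate 3 to 0.16 without EGFP-high replicate 2; it was 0.156 without EGFP-high replicate 3, 0.131 without EGFP-negative replicate 1 and 0.119 without EGFP-negative replicate 2. Over the 17 alternatives its difference stayed between -0.92 and -0.64.

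Rplp0, the scaffold of the ribosomal stalk that recruits elongation factors, read 9663, 8011 and 7353 in EGFP-high and 12781, 11598 and 10134 in EGFP-negative cells. Its groups were apart, with replicate 1 the highest in both. The log2 difference was -0.47 (SE 0.17, limma adjusted p = 0.182) and became -0.28 after quantile normalization (adjusted p = 0.402). The stalk proteins Rplp1 and Rplp2 had no probe set with a single symbol and were not analysed here.

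Rpl19, an RNA-binding protein of the large subunit, read 5544, 5836 and 5166 against 7955, 7155 and 7078 on its bright probe set. Every EGFP-high array was below every EGFP-negative array, and the log2 difference was -0.42 on the deposited scale and -0.16 after quantile normalization (limma adjusted p = 0.15 and 0.619). Its other probe set, which read 34.9 to 170.7, had a difference of -0.076. Rpl10a, which forms the stalk beside the site where transfer RNA leaves, read 4224, 3547 and 3234 against 5822, 4690 and 4373. These groups were apart too, and here the difference went from -0.43 to -0.095 with the normalization. The other probe set of Rpl10a differed by -0.31 on the deposited scale and by 0.005 after quantile normalization.

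Rpl8, Rpl7a and Rpl6, all proteins that bind the RNA of the large subunit, had differences of -0.26, -0.34 and -0.28 on the deposited scale. After quantile normalization the values were 0.0047, -0.022 and 0.047. The bright probe sets of Rpl7 and Rpl37a were near 0 on the deposited scale, at -0.045 and 0.044, and after quantile normalization they stood at 0.13 and 0.33. Rpl7l1, a relative of Rpl7 at low intensity, differed by -0.42 with overlapping groups. Rpl22, a protein not needed for translation in general, differed by 0.16 and 0.29 on its 2 probe sets. Rpl41, the smallest protein of the ribosome and among the brightest probe sets, read 13398, 12390 and 9787 against 16088, 12865 and 11871, with overlapping groups and a difference of -0.20.

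In the small subunit, 18 of 27 probe sets were tested, 14 differences were below 0 and 6 were apart and lower, where 11.1% of all tested probe sets were. By limma with Benjamini-Hochberg adjustment 0 passed, with 0 higher and 4 lower at an unadjusted p under 0.05. Rpsa, a small subunit protein also described as a laminin receptor precursor, read 1532, 1146 and 1570 in EGFP-high and 2487, 1733 and 1872 in EGFP-negative cells. Its groups were apart, with EGFP-negative replicate 1 well above the other arrays. The log2 difference was -0.51 (SE 0.20, limma adjusted p = 0.213) and -0.32 after quantile normalization (adjusted p = 0.478). Rps19, which is needed to mature the small subunit and is mutated in Diamond-Blackfan anaemia, read 5547, 4289 and 5014 against 6881, 6826 and 6181. The groups were apart, with a difference of -0.43 that became -0.13 after quantile normalization.

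Rps10, Rps7 and Rps18, named after their values were seen, were apart as well, with differences of -0.43, -0.41 and -0.33. After quantile normalization these stood at -0.023, -0.072 and -0.15. Rps3 and Rps3a1 differed by -0.25 and -0.21, and then by 0.10 and -0.037. The bright probe set of Rps24 read 12344, 11569 and 10892 against 11300, 10696 and 13722, and its difference of -0.031 was within the spread of either group. Rps28 read 10443, 10075 and 9253 against 12190, 10065 and 11490 on its brightest probe set, with a difference of -0.18 and overlapping groups. Rps27, a zinc finger protein of the subunit, differed by 0.18. Rps6, the substrate of S6 kinase, had no probe set with a single symbol and was not analysed here.

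**Figure D2:**
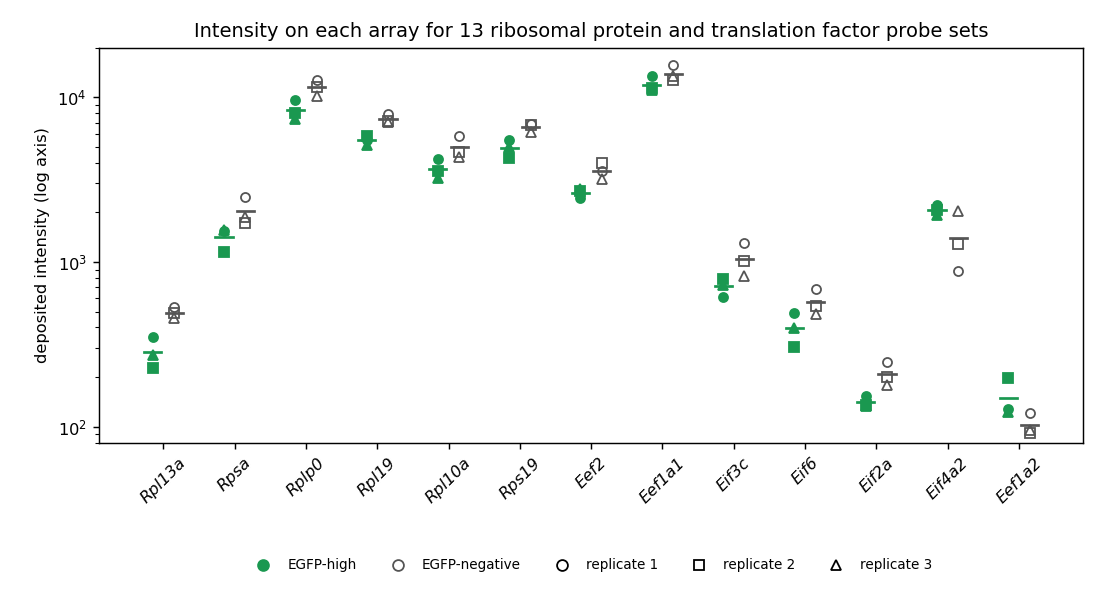
Deposited intensity (log axis) of 13 probe sets on each array, with filled green symbols for EGFP-high, open grey symbols for EGFP-negative, a symbol shape per replicate number and bars at the group means (n = 3 each). Rpl13a, Rpsa, Rplp0, Rpl19, Rpl10a, Rps19, Eef2, Eif3c and Eif2a had no overlap between the groups, all lower in EGFP-high, and Eef1a2 had none in the other direction.

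The differences of the ribosomal proteins went with how bright their probe sets were. Of the 20 brightest tested probe sets on these arrays 15 (75%) fitted the rule, 8 of them members and 7 with several symbols, as did 30 of the 50 brightest (60%) and 40 of the 100 brightest (40%). Brightness depends on the probes as well as on the RNA, so this describes the array signal and not relative amounts of RNA. Above a mean intensity of 1000, a limit chosen after seeing the data, 20 of 21 ribosomal protein probe sets had a difference below 0, with a median of -0.28, a range of -0.51 (Rpsa) to 0.044 (Rpl37a) and 11 apart. After quantile normalization 12 of the 21 were below 0, with a median of -0.023 and 1 apart. At or below that limit 6 of 12 were below 0 and the median was -0.024, although Rpl13a is among them. Some of the 12, such as those of Rpl19, Rps24 and Rps4x, are dim second probe sets of genes whose bright probe set is among the 21. The limit therefore divides probe sets and not genes, and it does not show how less abundant transcripts behave. For a single bright probe set of this kind the 95% interval reached a median of 0.36 to either side of the difference, and 0.22 with the replicate block. With the block 5 of the 21 were lower by limma with Benjamini-Hochberg adjustment, and 14 at an unadjusted p under 0.05. Of 335 probe sets outside the rule above the same limit, 92 were apart and lower on the deposited scale. With the block 85 of these 335 were lower and 30 higher by the same test. At an unadjusted p under 0.05 the block gave 142 lower and 48 higher among them. The counts of the 21 are read against these.

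Probe sets outside the rule had the same tendency at this level. Among 335 others above an intensity of 1000 the median was -0.21 and 227 (67.8%) were below 0, while among 7002 others at or below it the median was 0.010 and 48.9% were below 0. After quantile normalization the bright others had a median of -0.051. In the top decile of tested probe sets by level, 746 of them, members had a median of -0.27 on the deposited scale and -0.058 after quantile normalization, and probe sets outside the rule -0.12 and -0.042. The difference between ribosomal proteins and other bright probe sets was not tested. Quantile normalization forces the top of each array to a common set of values, and on these arrays most of the very brightest probe sets are ribosomal protein probe sets. In an alternative chosen after seeing the data, the quantile curve was fitted on the probe sets outside the rule and then applied to all of them. The 21 bright ribosomal protein probe sets then had a median of -0.074, with 16 below 0. Rpl13a passed in that setting by limma with Benjamini-Hochberg adjustment (adjusted p = 0.0495), where 5.04% of tested probe sets were called (2.92% higher and 2.12% lower).

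**Figure D3:**
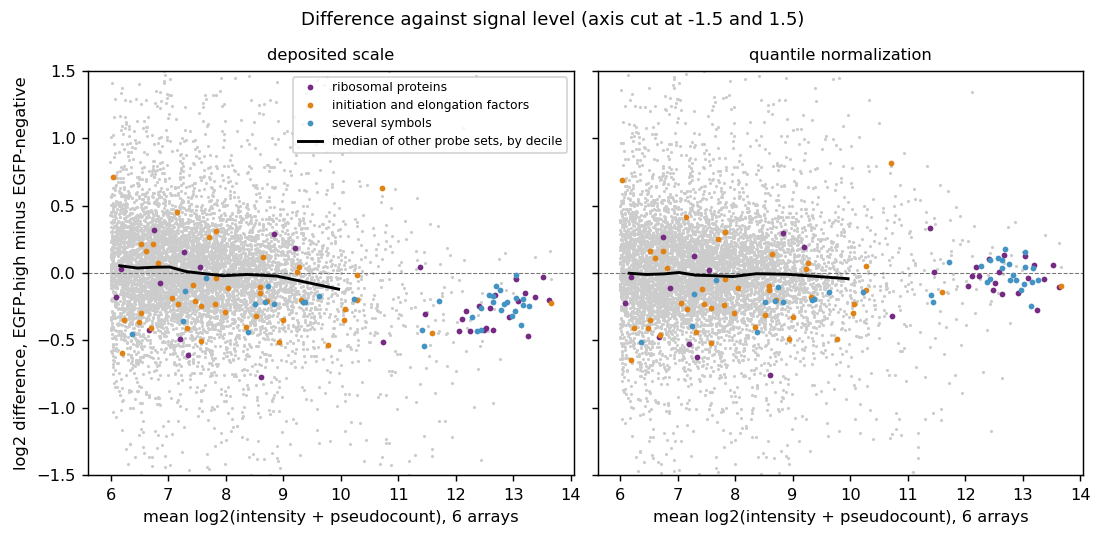
Log2 difference, EGFP-high minus EGFP-negative, against mean log2(intensity + 19.3) over the 6 arrays for tested probe sets (grey), ribosomal proteins (purple), initiation and elongation factors (orange) and probe sets with several symbols of which 1 fits the rule (blue), on the deposited scale (left) and after quantile normalization (right). The black line joins the medians of probe sets outside the rule by decile of level, which end at -0.12 on the left and at -0.042 on the right.

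The same shift was visible in the arrays as a whole. The 99th percentile of intensity was 2436, 2436 and 2484 on EGFP-high replicates 1, 2 and 3 and 3088, 2947 and 2939 on EGFP-negative replicates 1, 2 and 3, so the groups did not overlap. Over probe sets outside the rule it was 1758, 1820 and 1933 against 2182, 2004 and 2221, also without overlap, while the 90th percentile was 427.7 to 435.8 against 435.3 to 438.2. Ribosomal protein probe sets with a single symbol held 5.33%, 4.99% and 4.66% of the summed intensity in EGFP-high and 5.99%, 5.52% and 5.32% in EGFP-negative cells. These shares overlapped between the groups, because EGFP-high replicate 1 was above EGFP-negative replicate 3, but each EGFP-high array was below the EGFP-negative array of its own number. Initiation factors held 0.546%, 0.515% and 0.556% against 0.559%, 0.552% and 0.554%, and these shares lay close together. The sums include the bright Eif4a2 probe set, which read 2209, 2057 and 1935 in EGFP-high and 888, 1277 and 2050 in EGFP-negative cells. Of the 38 tested initiation factor probe sets 29 had a difference below 0, so a close total does not mean that the single factors were alike.

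Control RNAs added at hybridisation, which do not come from the cells, had no common direction. Of 9 such rows 3 were lower in EGFP-high and their median log2 difference was 0.081. Most of these rows lay below the brightness limit used above, where probe sets outside the rule had a median of 0.010. The bright rows were BioDn-3 (-0.0086), CreX-3 (-0.014) and CreX-5 (0.11). The brightest, CreX-3, read 9291, 13290 and 10230 against 9885, 10500 and 12520, with a mean of 10938 in EGFP-high and 10970 in EGFP-negative. CreX-3 varied more within each group than between the means, so it cannot resolve a small shift. A technical part in the array-wide shift was not tested. The ratio of 3′ to 5′ signal of Gapdh, a sign of RNA quality, was 0.829, 1.49 and 0.917 against 0.885, 1.15 and 0.770. That of actin was 1.42, 2.03 and 1.51 against 1.26, 1.59 and 1.41. For actin the EGFP-high array was above the EGFP-negative array of the same number in each of the 3 pairs. The part of RNA quality in the ribosomal protein differences was not tested.

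**Figure D4:**
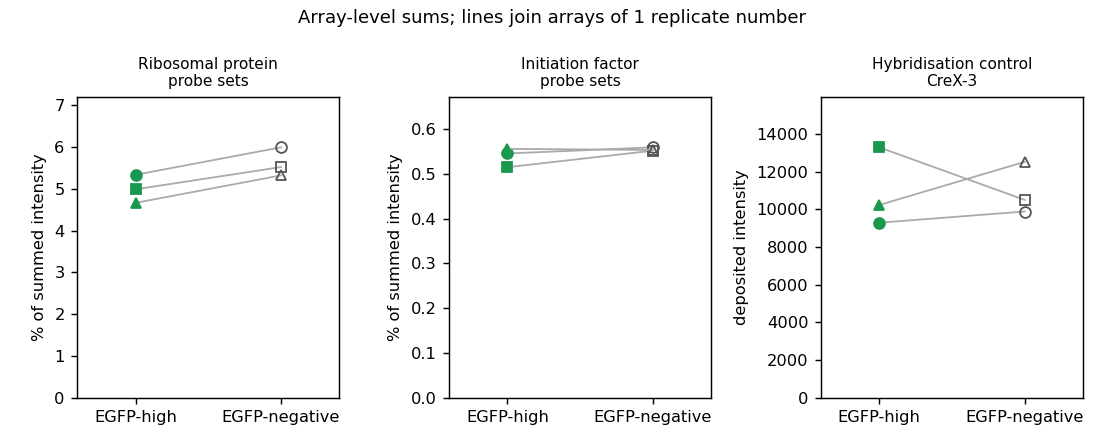
Share of summed intensity held by ribosomal protein probe sets (left) and initiation factor probe sets (middle), in percent, and deposited intensity of the hybridisation control CreX-3 (right), with 1 symbol per array and lines joining arrays of one replicate number. The ribosomal protein share was lower in EGFP-high in all 3 pairs, from 5.33% against 5.99% to 4.66% against 5.32%, while CreX-3 was higher in EGFP-high in 1 pair and lower in the others.

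Within pairs of arrays with the same number, the median difference of the 33 tested ribosomal protein probe sets was -0.27, -0.24 and -0.23 for numbers 1, 2 and 3. The values were -0.037, -0.085 and 0 after quantile normalization. In all 3 pairs 20 of the 33 (60.6%) were below 0 on the deposited scale, against 22.9% of all tested probe sets. After quantile normalization 7 of the 33 (21.2%) were, against 23.5% of all, which is near the background. Probe sets with several symbols, 27 of them in the top decile by level, gave 36 of 36 tested differences below 0, a median of -0.22, and 25 of 36 with a median of -0.067 after quantile normalization. None of these 36 passed (limma, Benjamini-Hochberg; 0 higher and 4 lower at an unadjusted p under 0.05). With the replicate block 4 of the 36 were lower by the same test, and 13 at an unadjusted p under 0.05. The block gave 5.31% and 12.5% of all tested probe sets lower at these limits. Of the 335 probe sets outside the rule above an intensity of 1000 it gave 85 and 142 lower, so the counts of the 36 were not above that background.

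Of the 38 tested initiation factor probe sets 29 had a difference below 0, 7 were apart with lower values and 2 with higher values. Of all tested probe sets 50.2% were below 0, 11.1% were apart and lower and 11.6% apart and higher. By limma with Benjamini-Hochberg adjustment 0 passed, with 1 higher and 4 lower at an unadjusted p under 0.05. Unlike those of the ribosomal proteins, the counts of initiation factors stayed alike after quantile normalization, with 28 below 0, 6 apart with lower values and 3 with higher values. The shares of all tested probe sets were then 52%, 11.4% and 10.9%. In the pairs of one number the median was -0.18, -0.16 and -0.18, and 17 of 38 (44.7%) were below 0 in all 3 pairs on either scale, against 22.9% and 23.5% of all tested probe sets. Most factor probe sets were less bright than those of the ribosomal proteins. Above an intensity of 1000 the 7 initiation and elongation factor probe sets had a median of -0.22, and -0.12 after quantile normalization. At or below it 36 factor probe sets had -0.20 and -0.21, and 12 ribosomal protein probe sets -0.024 and -0.070. Role and level were not separated. Whether initiation factors and ribosomal proteins differ in their response to the normalization was not tested.

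The subunits of eIF3, the large complex that binds the small subunit and helps to recruit the message, had 10 of 11 tested differences below 0 and a median of -0.27, or -0.23 after quantile normalization. Eif3c, a core subunit, read 614, 792 and 728 in EGFP-high and 1309, 1016 and 823 in EGFP-negative cells. The groups were apart by a small margin, with the widest gap between the arrays of number 1. The log2 difference was -0.53 (SE 0.20, limma adjusted p = 0.198) and -0.49 after quantile normalization (adjusted p = 0.232). Eif3l and Eif3f were apart with differences of -0.35 and -0.36, and Eif3d, which can bind the cap of some messages, had -0.35 with overlapping groups. The 2 probe sets of Eif3e disagreed, at 0.71 and -0.11. The first of these read 146.3, 67.8 and 22.3 against 19.6, 49 and 31.9, so its positive value rested on EGFP-high replicates 1 and 2 at low intensity.

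eIF2B, the exchange factor that recharges eIF2 with GTP and is held back when eIF2 is phosphorylated under stress, had 4 of 5 differences below 0 and a median of -0.24. Its catalytic subunit Eif2b5 had -0.41 and -0.30 on its 2 probe sets. Eif2b4, on a coded probe set that may also pick up related transcripts, read 232.6, 254.2 and 216.8 against 198, 192.8 and 166.3. It was 1 of the 3 members with EGFP-high above EGFP-negative without overlap, beside Eif1ax and Eef1a2, with a difference of 0.31 (SE 0.16, limma adjusted p = 0.369). For eIF2 itself, which carries the initiator transfer RNA, Eif2s3x differed by -0.018 and the 2 probe sets of Eif2s2 by -0.59 and 0.22, the former set by 1 EGFP-negative array at 152.8 where the others read 37.4 and 54.8. Eif2s1, the subunit phosphorylated under stress, had no probe set with a single symbol and was not analysed here. Eif2a, a separate factor that can deliver initiator transfer RNA without eIF2, read 153.9, 134.8 and 133.9 against 248.5, 199.8 and 179.3. Its groups were apart, with a difference of -0.50 (SE 0.17, limma adjusted p = 0.159) and -0.52 after quantile normalization.

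The eIF4 factors, which recognise the cap and unwind the start of the message, were divided, with 4 of 8 tested differences below 0. Eif4a2, a helicase closely related to Eif4a1, read 2209, 2057 and 1935 in EGFP-high and 888, 1277 and 2050 in EGFP-negative cells. The EGFP-high arrays were alike and the EGFP-negative arrays were not, with replicate 3 inside the EGFP-high range. The log2 difference was 0.63 (SE 0.27, 95% interval 0.023 to 1.24, limma adjusted p = 0.272), and 0.82 after quantile normalization (adjusted p = 0.116). Without EGFP-negative replicate 3 it was 0.94 with an adjusted p of 0.0458. Eif4a1, on a coded probe set, read 249, 338 and 352 against 385, 367 and 419. It was apart in the other direction with a difference of -0.32 (limma adjusted p = 0.421). The difference between the 2 helicases' changes was not tested.

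Eif4g2, a relative of the scaffold eIF4G that supports translation without the cap-binding protein, differed by -0.23 with overlapping groups. Eif4b, a helper of the helicase, had -0.21 and 0.045 on its tested probe sets, and Eif4e2, a cap-binding relative of Eif4e, had -0.18 and 0.076. The cap-binding protein Eif4e was at the level of the background controls on both probe sets, apart from 50.6 on EGFP-high replicate 2 for 1 of them, and was not tested. Eif4g1 had no probe set with a single symbol and was not analysed here.

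Eif6 keeps the subunits apart by binding the large subunit. It read 488.9, 305.5 and 395.5 in EGFP-high and 688.9, 539.4 and 484.7 in EGFP-negative cells. EGFP-high replicate 1 lay just above EGFP-negative replicate 3, so the groups overlapped. The difference was -0.51 (SE 0.21, limma adjusted p = 0.247) and -0.49 after quantile normalization. Eif1ax, which helps select the start codon, had 0.27 and -0.11 on its 2 probe sets, the first apart and higher in EGFP-high. Eif5a, which eases the joining of prolines and carries the modified residue hypusine, read 63.1, 39 and 45.2 against 47.7, 30 and 35.8, too low to be tested.

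The elongation factors had no common direction, with 2 of 5 tested differences below 0, a median of 0.0061 and 0 passing (limma, Benjamini-Hochberg; 0 higher and 1 lower at an unadjusted p under 0.05). Eef2 drives the ribosome forward along the message. It read 2437, 2684 and 2769 against 3581, 3995 and 3196. The groups were apart, and the difference of -0.44 (SE 0.15, limma adjusted p = 0.158) became -0.14 after quantile normalization (adjusted p = 0.746). Eef2k, the kinase that inhibits Eef2, read 29.6, 44.3 and 25.9 against 67.7, 63.7 and 41.9 with overlapping groups, and was too low to be tested.

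Eef1a1 and Eef1a2 are alternative forms of the factor that delivers aminoacyl transfer RNA, Eef1a1 being the form of most tissues and Eef1a2 that of muscle and neurons. Eef1a1, on the brightest member probe set, read 13512, 11343 and 11056 against 15710, 12754 and 13438, with overlapping groups and a difference of -0.22 (SE 0.16, limma adjusted p = 0.555). Eef1a2 read 128, 198 and 122 against 121, 91.4 and 95.2. Its groups were apart by about 1 unit of intensity with EGFP-high replicate 2 the highest, and the difference was 0.45 (SE 0.21, limma adjusted p = 0.336). Among the binding partners, the translational repressor Eif4ebp1 differed by 0.082, and its relative Eif4ebp2 by -0.32 and -0.29 on its tested probe sets, all with overlapping groups.

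Of 24 member genes with several probe sets 16 had at least 2 tested, and in 7 of these the signs differed. The 7 were Eif1ax, Eif2s2, Eif3e, Eif4b, Eif4e2, Rps24 and Rps4l, and none of their probe sets passed. Rps4l, a copy of Rps4x, had -0.61 on a coded probe set that may also pick up related transcripts and 0.32 on its other. Other coded probe sets named here include the brightest of Rps24, Rps28, Rpl41 and Rpl7 and that of Eif4a1. Ribosomal protein genes have many processed copies in the mouse genome, and a probe set can read RNA from such copies. Over plain probe sets only, those without a letter code in their identifier, the median of all tested members was -0.23, and the counts of called members were 0 higher and 1 lower.

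Promoter stretches are shown because many transcripts of this group are known to begin with a C followed by a run of C and T, the terminal oligopyrimidine tract through which growth signals control their translation. Each covers 30 bases before to 30 bases after a RefSeq start on GRCm38.p6, 5′ to 3′ on the gene's strand, with the longest run of C or T of at least 8 bases in capitals. Rpl13a is shown as the member that passed, and Rps24 and Rpl41 for their bright probe sets. Rps10, Rps18 and Eif4a2 were chosen after their values were seen. They lie at chr7:45128716-45128775 on the minus strand (Rpl13a), chr14:24490648-24490707 on the plus strand (Rps24), chr10:128549139-128549198 on the minus strand (Rpl41), chr17:27635215-27635274 on the minus strand (Rps10), chr17:33955636-33955695 on the minus strand (Rps18) and chr16:23107438-23107497 on the plus strand (Eif4a2).
Rpl13a: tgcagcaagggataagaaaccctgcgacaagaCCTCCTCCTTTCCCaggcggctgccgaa
Rps24: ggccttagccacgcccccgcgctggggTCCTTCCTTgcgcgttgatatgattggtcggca
Rpl41: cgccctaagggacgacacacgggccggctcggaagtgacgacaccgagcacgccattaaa
Rps10: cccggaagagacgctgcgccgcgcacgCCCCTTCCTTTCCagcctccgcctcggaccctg
Rps18: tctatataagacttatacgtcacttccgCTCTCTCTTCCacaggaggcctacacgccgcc
Eif4a2: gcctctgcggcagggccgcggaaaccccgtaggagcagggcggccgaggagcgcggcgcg

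The run was 14 bases in Rpl13a, 13 in Rps10, 11 in Rps18 and 9 in Rps24 at the start shown, whereas Rpl41 and Eif4a2 had none of 8 bases in this window. Counting the start as 1 and the base before it as -1, the run lies at 3 to 16 in Rpl13a and -3 to 10 in Rps10. It lies at -2 to 9 in Rps18 and -3 to 6 in Rps24. RefSeq lists 2 starts for Rps24, and the stretch around the other, not shown, has a run of 12 bases. That run lies at -30 to -19, wholly before its start. The counts below take a run anywhere in the stretch and so do not count terminal oligopyrimidine tracts. Promoters were found for 65 of the 80 member genes. A run of at least 8 bases of C or T on the gene's strand lay within the 60 bases of 15 of 37 ribosomal protein promoters (40.5%), 9 of 39 initiation factor promoters (23.1%) and 3 of 4 elongation factor promoters, against 22.9% of all 32851 promoters. The motif CCGGAAG, the core bound by ETS factors, was sought on both strands from 250 bases before to 50 after the start, and was present in 32.4% of ribosomal protein and 30.8% of initiation factor promoters against 8.86% of all. AAGATGGC, a YY1 type motif, sought in the same way, was present in 18.9% and 12.8% against 2.75%. The 2 motifs can overlap, since the first ends with the letters that open the second. A match is a description of the sequence, and the arrays measured RNA level and not its translation.

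Lists of related genes, chosen with earlier results of these data known, gave 0 calls by limma with Benjamini-Hochberg adjustment. For ribosome biogenesis 42 probe sets were tested and 29 (69%) were below 0, with a median of -0.15 on either scale and 0 higher and 2 lower at an unadjusted p under 0.05. The nucleolar proteins Ncl, Npm1 and Fbl, named after their values were seen, differed by -0.31, -0.28 and -0.22. For mitochondrial ribosomal proteins 62 were tested and 43 (69.4%) were below 0, with a median of -0.12 and, after quantile normalization, -0.14 (0 and 3 at an unadjusted p under 0.05). Aminoacyl-tRNA synthetases, which charge transfer RNAs, had 23 tested, 18 below 0, a median of -0.15 and, after quantile normalization, -0.19 (0 and 3). Neither of these lists moved towards 0 with the normalization.

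Signalling to the translation machinery had 26 tested and a median of -0.095 (1 higher and 2 lower at an unadjusted p under 0.05). Other translation genes had 22 tested, 18 below 0 and a median of -0.12 (0 and 3). With the replicate block, and named after their values were seen, 1 synthetase was lower, Qars (-0.52, limma adjusted p = 0.0377). Of the signalling genes Sesn1, a stress-induced inhibitor of mTORC1 signalling, was higher (0.59, adjusted p = 0.0283), and Ddit4, another such inhibitor (-1.01, 0.0136), and Mknk1, a kinase of eIF4E (-0.63, 0.0446), were lower. Of the other translation genes Naca, which binds nascent chains at the ribosome (-0.65, 0.00675), and Pabpc1, the poly(A) binding protein (-0.61, 0.0159), were lower. The block called 5.31% of all tested probe sets lower and 5.13% higher, and most of these counts are near that background. At an unadjusted p under 0.05 the block gave 1 higher and 5 lower for ribosome biogenesis and 0 and 5 for mitochondrial ribosomal proteins. For the other translation genes it gave 1 and 4. With the block and quantile normalization together these lists had 1 synthetase lower, 1 signalling gene higher and 2 lower, and 0 of the other translation genes called.

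Markers of cell types that the sorted cells could hold were read beside these results, as levels summed over each list. The suprabasal keratinocyte list summed to 5286.9 to 14611.7 in EGFP-high and 13399.6 to 18005.8 in EGFP-negative cells, with 6 of 12 probe sets above the background controls on all arrays, and EGFP-high replicates spread widely. The basal list summed to 11306.7 to 15130.7 and 12361.9 to 13607.8 (6 of 9), and the bulge list to 11692.7 to 13817.3 and 1716.4 to 2168 (5 of 10). For the basal list 1 of 6 tested probe sets was called, Itga6 (lower, -1.26, limma adjusted p = 0.00449), for the suprabasal list 0 of 6 (0 higher and 1 lower at an unadjusted p under 0.05) and for the bulge list 9 of 10, all higher. With the replicate block Krt1, a suprabasal keratin, was lower (-1.43, adjusted p = 0.00708) and all 10 bulge probe sets were higher. Melanocyte markers summed to 633.1 to 708.5 and 468 to 513.2 (4 of 10), and T cell markers to 441.4 to 696.8 and 375.2 to 429.6 (1 of 8). Summed levels of Langerhans cell and macrophage, fibroblast, endothelial cell and erythrocyte markers overlapped between the groups. Single markers were called within these lists, named after their values were seen. The only tested T cell markers went in opposite directions, Cd7 higher (1.10, limma adjusted p = 0.0143) and Thy1 lower (-1.51, 0.0382). Thy1 is also in the fibroblast list, where 1 probe set of Col1a2 was higher (2.32, 0.00489) and its brighter probe set differed by -0.030. Of the melanocyte markers Mitf was higher (1.13, 0.0147). In sorted samples, fewer cells of a type and less RNA per cell cannot be told apart, and the part of these cell types in the ribosomal protein and initiation factor differences was not tested.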

How the data were processed

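RNA from 3 EGFP-high and 3 EGFP-negative samples was hybridised to Affymetrix mouse arrays, 1 per sample, and groups and replicate numbers were read from the titles. The values the authors deposited are linear intensities, 1 for each probe set on each array. The 6 columns share a mean near 150.1 after trimming 2% at each end, so they had been scaled before deposit. The sources used here do not state the software or background method. Array medians were within 1.09 times of each other, under the limit of 1.2, and no rescaling was applied. Precision is limited by the number of arrays.

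The 66 control rows were left out of tests. Symbols come from the platform annotation. Of the other rows 10833 had 1 symbol, 396 several and 1193 none, and all 111 member probe sets were found in a RefSeq gene table (GRCm38.p6) with 0 symbols changed. Values were analysed as log2(value + 19.3), the 25th percentile of values above 0. Probe sets with a mean above the 40th percentile, near an intensity of 44.6, were tested with limma 3.58.1 in R 4.3.3 (lmFit, eBayes with an intensity trend, two-sided, 4 residual and 4.96 prior degrees of freedom), with Benjamini-Hochberg adjustment over all 7453 and a threshold of 0.05. The procedure was tested on simulated data. Intervals are 95% limma intervals.

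Same-numbered arrays of the 2 groups deviated together over all tested probe sets (correlations 0.336, 0.368 and 0.305, each above 0.1). The numbers in the titles were therefore taken to pair them, which the labels do not state. Over the members alone these correlations were 0.137, 0.535 and 0.198, and arrays of different numbers gave -0.336 to 0.139. Among members the pairing is thus clear for number 2 only. Results with the block are printed where a call or a count of calls differed, by over 1.5 times for a count. Members and lists were chosen with earlier results of these data known. Genes were named by rule: members past the threshold on the deposited scale, after quantile normalization or with the block, the 5 most positive and 5 most negative, the 5 brightest, genes whose probe sets disagree in sign, and a fixed list of factors. Other named members illustrate a role and were picked with their values known. Alternatives were quantile and median normalization, other pseudocounts and filters, no trend, the block, leaving out arrays, and other choices of probe sets. Promoter sequences are from RefSeq.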

Additional observations from a re-analysis of the deposited data

How the results depend on the processing

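The summary values (counts and medians) were 170 times close to those reported and 43 times moved. After quantile normalization 0 members were lower and 8 apart with lower values, with medians of -0.107 (all members), -0.0324 (small subunit), -0.0224 (large subunit) and -0.0442 (top decile). In this section the top decile means all 746 tested probe sets of that level and not the members among them. Its median was -0.146 on the deposited scale. With the replicate block 382 probe sets were higher and 396 lower, and 7 members lower; the block together with quantile normalization gave 368 and 353, 8 apart and the medians of quantile normalization. Without the filter 0 members were lower and the medians were -0.0646 (large subunit) and -0.138 (initiation factors), and without the trend 0 members were lower. With the quantile curve fitted outside the rule, chosen after seeing the data, 8 were apart and the medians were -0.125 (all members), -0.0356 (large subunit) and -0.0499 (top decile). Without both arrays of number 1, also chosen then, 32 of 78 tested members were apart with lower values. Of all 7453 tested probe sets 1738 were, against 829 with all arrays, since groups separate more easily with fewer arrays.

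Leaving out single arrays gave 106 to 265 probe sets higher and 85 to 234 lower, in both cases lowest without EGFP-high replicate 3 and highest without EGFP-high replicate 1. It gave 0 to 1 members higher (Eif4a2, without EGFP-negative replicate 3) and 0 to 1 lower. Members apart and higher were 3 to 7, and those apart and lower 23 to 30. Groups separate more easily with fewer arrays, so these counts cannot be set against those from all arrays. Among all 7453 tested probe sets 1132 to 1330 were then apart and higher, against 866 with all arrays. Those apart and lower were 1067 to 1418, against 829. The medians ranged from -0.271 to -0.187 (all members), -0.293 to -0.118 (small subunit), -0.364 to -0.209 (large subunit), -0.25 to -0.179 (initiation factors), -0.166 to 0.176 (elongation factors, negative without EGFP-negative replicate 2 and positive without EGFP-negative replicate 1) and -0.167 to -0.106 (all tested probe sets of the top decile). Named probe sets kept direction and side of the threshold in 532 cases, with 7 gaining a call, 8 losing it (all Rpl13a) and 20 reversing, none of the last called. Beside the losses of Rpl13a given above, its adjusted p was 0.0628 without the filter and 0.0615 without the trend.

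The reversals concerned 5 probe sets with differences near 0. Leaving out single arrays moved Eif4b from -0.0742 to 0.272, Eif3e from -0.299 to 0.0668, Eif4e2 from -0.0493 to 0.312, the dim Rps24 probe set from -0.194 to 0.178 and the bright one from -0.104 to 0.0756. Without both arrays of number 1 Eif4b was -0.0254, Eif4e2 -0.158 and the dim Rps24 probe set -0.146. The latter was -0.0273 after quantile normalization, with or without the block, and -0.0279 with the curve fitted outside the rule, and the bright one 0.0623 after quantile normalization, with or without the block. The cause of these changes was not tested, and the background near the dim probe sets limits what they resolve.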
